A study of Rattus norvegicus with 16 samples.

Results

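Bone marrow is where B lymphocytes are made. B lineage cells first express transcription factors such as Ebf1 and Pax5, then the recombinase that joins immunoglobulin gene segments, and then a surrogate light chain that pairs with the first heavy chain. Mature B cells carry immunoglobulin on their surface together with the signalling chains Cd79a and Cd79b, and plasma cells secrete it with the help of Mzb1 and, for IgM and IgA, Jchain. Liver of a grown animal holds few B lineage cells and makes none of these proteins in its hepatocytes.

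The 9 B lineage genes described here were Ebf1, Pax5, Rag1, Vpreb1, Igll1, Cd79a, Cd79b, Mzb1 and Jchain, of 32623 gene records in the deposited table. They were taken by gene name, and 8 were found that way. No record was named Cd79a, and the record ENSRNOG00000020125 was used for it because its description and gene number are those of the CD79a molecule. RNA came from female Big Blue rats, all carrying a transgene vector with cII and lacI reporter genes, that were 6 weeks old on arrival and had 1 week to settle. Rats received N-nitrosodiethylamine (NDEA), a carcinogen that liver cytochrome P450 turns into a DNA-alkylating agent, by gavage at 10 mg/kg/day for 28 days, and control rats received 0 mg/kg/day. The animals were killed 3 days after dosing ended, and 4 libraries were made per group: marrow NDEA, marrow control, liver NDEA and liver control. Per the labels' protocols, 6 rats were treated per dose group, so each library is read here as 1 rat, but which cage a rat came from is not given. Only the 3' ends of polyadenylated RNAs were sequenced, and a count therefore does not grow with gene length.

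Library totals ranged over 4394984 to 5705705 counts in marrow NDEA, 2162182 to 5539409 in marrow control, 5000844 to 6863592 in liver NDEA and 5630838 to 6772923 in liver control. Levels below are CPM, counts scaled to a common library size of 1e+06. A gene was tested where 4 or more libraries reached the CPM that equals 10 counts at median depth. In the marrow libraries, 12 of 13 neutrophil markers and all 12 matched erythroid markers passed that filter, with haemoglobin alpha (Hba-a2) at a mean of 72173 CPM, and 8 of 12 hepatocyte markers were at 0. In the liver libraries all 12 hepatocyte markers passed, with albumin (Alb) at a mean of 76774 CPM. The share of counts from mitochondrial genes was 8.37% to 15.8% in marrow NDEA libraries and 6.41% to 13.0% in marrow control libraries. Marrow NDEA 3 and 4 had the highest such shares (15.2% and 15.8%) and the fewest genes detected, 10144 and 9101, against 10920 to 11699 in the other 6 marrow libraries. Skeletal muscle markers summed to 62.8 to 78.1 CPM in marrow NDEA and 161 to 547 CPM in marrow control, with lower estimates for all 8 tested of 9 matched. The part that these differences play in the values below was not tested, beyond the fits that left out NDEA 3 and 4 or carried the mitochondrial share.

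The regions just before 4 of the genes are shown because Vpreb1 and its near copy Vpreb2 come up together in the marrow values, Igll1 encodes the partner of Vpreb1 in the surrogate light chain, and Cd79a is a textbook target of EBF1. RefSeq (build GRCr8) names the copies Vpreb1a and Vpreb1b. Each line gives the 250 bases before the RefSeq gene start, 5′ to 3′ on the gene's strand. Capitals mark matches on either strand to the E-box letters CAGNTG, which E2A proteins bind, and to CCCNNGGG, the core of the EBF1 motif.
Vpreb1a: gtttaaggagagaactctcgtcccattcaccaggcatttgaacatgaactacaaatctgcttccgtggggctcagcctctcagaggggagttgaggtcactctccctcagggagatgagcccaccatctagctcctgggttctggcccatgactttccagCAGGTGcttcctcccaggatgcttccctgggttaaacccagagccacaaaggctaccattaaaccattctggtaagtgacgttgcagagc
Vpreb1b: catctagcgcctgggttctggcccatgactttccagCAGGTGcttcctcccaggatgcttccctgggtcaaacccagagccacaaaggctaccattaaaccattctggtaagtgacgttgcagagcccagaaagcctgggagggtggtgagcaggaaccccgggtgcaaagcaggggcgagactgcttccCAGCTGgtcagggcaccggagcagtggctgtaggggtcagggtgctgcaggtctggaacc
Igll1: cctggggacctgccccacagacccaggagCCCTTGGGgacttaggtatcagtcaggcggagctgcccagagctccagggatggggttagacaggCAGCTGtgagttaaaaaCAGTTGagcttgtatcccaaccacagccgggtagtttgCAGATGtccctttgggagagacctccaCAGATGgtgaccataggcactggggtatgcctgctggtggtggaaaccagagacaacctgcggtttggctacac
Cd79a: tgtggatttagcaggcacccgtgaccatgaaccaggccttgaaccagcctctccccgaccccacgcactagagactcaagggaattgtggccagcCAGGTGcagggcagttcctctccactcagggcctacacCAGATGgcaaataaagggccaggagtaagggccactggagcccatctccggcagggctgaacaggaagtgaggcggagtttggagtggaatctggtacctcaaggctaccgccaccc
They lie at chr11:97630924-97631173 on the plus strand (Vpreb1a), chr11:96514405-96514654 on the minus strand (Vpreb1b), chr11:97642937-97643186 on the plus strand (Igll1) and chr1:89621210-89621459 on the plus strand (Cd79a). The Vpreb1a and Igll1 starts were 12.0 kb apart. The Vpreb1b region lay 1.12 Mb away from that of Vpreb1a. The last 126 bases before the Vpreb1a start matched bases 250 to 125 before the Vpreb1b start at 124 of 126 aligned positions (98.4%), and that stretch holds the E-box CAGGTG in both. The E-box letters occurred 1 time before Vpreb1a, 2 times before Vpreb1b, 4 times before Igll1 and 2 times before Cd79a, and 43.3% of 33469 RefSeq promoters of this length hold at least 1. The EBF1 core letters occurred 1 time before Igll1 and in 0 of the other 3 regions, against 10.8% of all promoters. A match is a match of letters and not a shown site. RefSeq promoters were found for 6 of the 9 genes, the exceptions being Cd79b, Pax5 and Mzb1. Of the 3 found but not shown, Rag1 held 2 E-box matches and Ebf1 and Jchain 0 each, and all 3 held 0 matches to the EBF1 core.

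The first comparison asked whether NDEA changed the B lineage genes in marrow. It did not detectably: 6 of the 9 genes could be tested, 0 of the 6 were called at an adjusted p under 0.05, and across all 9239 genes tested 0% were called. At an unadjusted p under 0.05, 1 of the 6 passed, against 14.5% of all genes. The NDEA and control groups overlapped for all 6. Over all genes the groups did not overlap for 5.6%, a share too small for 0 of 6 to be told from it. The highest estimate was that of the surrogate light chain gene Vpreb1. Among the 6, 3 estimates were higher and 3 lower, with a median log2 fold change of 0.01, beside -0.10 over all genes tested. In bulk tissue, fewer cells of a type and less RNA per cell cannot be told apart.

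**Figure D1:**
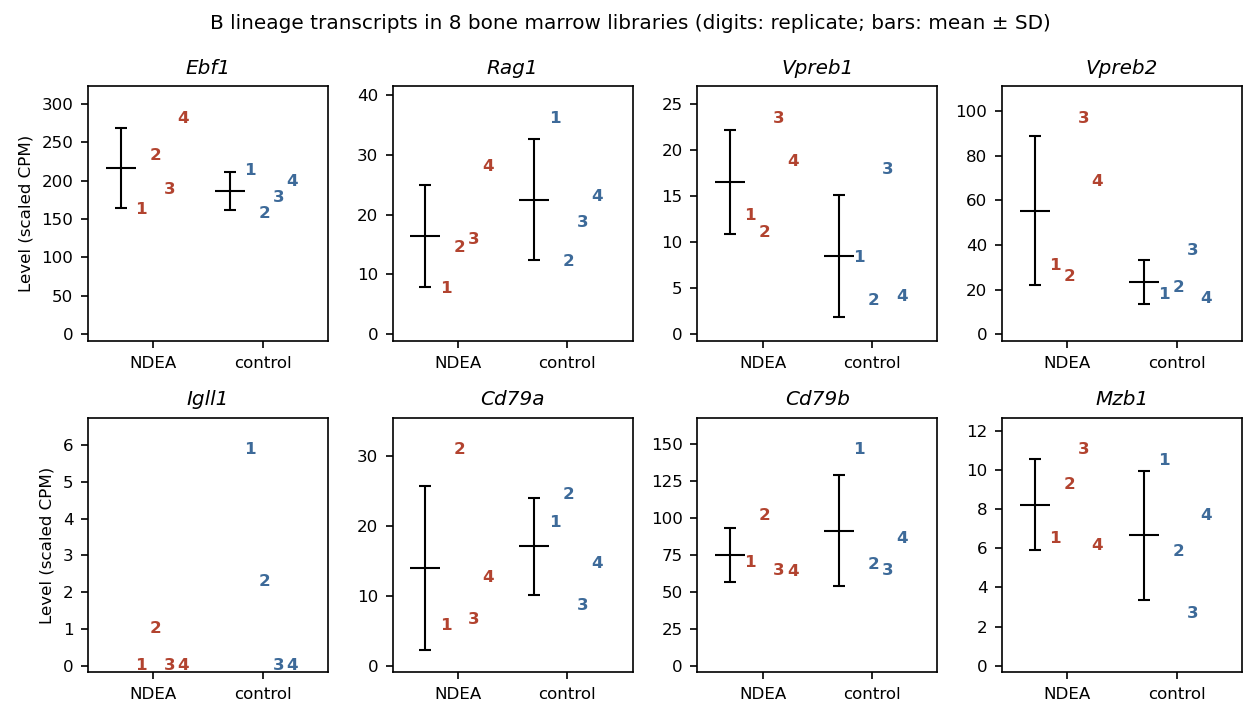
Level (scaled CPM) of 7 of the 9 B lineage genes and of Vpreb2, the near copy of Vpreb1, in marrow NDEA and marrow control libraries; digits are replicate numbers, and bars are the mean ± SD for genes that were tested. In Vpreb1 and Vpreb2 NDEA 3 and 4 are the highest, and in each of the 8 panels the groups overlap.

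Ebf1, the transcription factor that commits progenitors to the B lineage, had the highest CPM of the 9. It stood at 162, 232, 189 and 281 CPM in marrow NDEA and at 213, 157, 178 and 199 CPM in marrow control. NDEA 4 was the highest library and control 2 the lowest, and the groups overlapped. The means were 216 ± 51.9 CPM in NDEA and 187 ± 24.5 CPM in control (SD, n = 4 each). The log2 fold change was 0.20 (SE 0.23, 95% interval -0.28 to 0.68), with adjusted p = 0.695 by limma-voom with Benjamini-Hochberg adjustment over all genes tested, the test used throughout. Pax5, the factor that maintains B cell identity, had 0 counts in all 8 marrow libraries and 0 in all 8 liver libraries. Over the summed marrow totals this allows up to 0.0785 CPM, a limit on reads assigned to the record and not on the RNA itself. The collagen record Col1a2 was also at 0 in marrow, where Col1a1 had 60568 counts in control. Pax5 was thus at 0 in libraries with abundant Ebf1, and the cause was not tested.

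Rag1, a subunit of the recombinase that cuts immunoglobulin gene segments, was at 7.65, 14.4, 15.8 and 28.1 CPM in marrow NDEA and at 36.0, 12.2, 18.6 and 23.1 CPM in marrow control. NDEA 1 was the lowest and control 1 the highest. The estimate was a log2 fold change of -0.35 (SE 0.43, interval -1.24 to 0.55, adjusted p = 0.712). Its partner subunit Rag2, added after its values were seen, had 4.40, 5.87, 0 and 0 CPM in marrow NDEA, against 7.12, 9.34, 3.87 and 6.79 CPM in marrow control. The zeros fell in NDEA 3 and 4, the libraries with the fewest genes detected, and the Rag2 estimate did not pass (adjusted p = 0.309).

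Vpreb1, 1 of the 2 proteins of the surrogate light chain, was at 13.0, 11.1, 23.5 and 18.8 CPM in marrow NDEA and at 8.38, 3.70, 17.9 and 4.11 CPM in marrow control. Only control 3 reached into the NDEA range, and it lay above NDEA 1 and 2. The means were 16.6 ± 5.65 CPM in NDEA and 8.52 ± 6.59 CPM in control (SD, n = 4 each). The log2 fold change was 1.37 (SE 0.54, interval 0.24 to 2.50, unadjusted p = 0.0197) and did not pass after adjustment (adjusted p = 0.280). Over 18 alternative settings it ranged between 0.52, with the mitochondrial share in the fit, and 1.81, without control 3, with adjusted p of 0.125 to 0.999.

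Vpreb2, described as the near copy of Vpreb1 and likewise added after its values were seen, stood at 31.1, 25.8, 96.6 and 68.2 CPM in marrow NDEA and at 18.0, 21.2, 37.7 and 16.3 CPM in marrow control. The order of libraries resembled that of Vpreb1: NDEA 3 and 4 were the highest and control 3 was the highest control. Its log2 fold change was 1.11 (SE 0.43, adjusted p = 0.276), and without NDEA 3 and 4 it was 0.35 (adjusted p = 0.872). Reads from near-identical copies can be split or misassigned between the 2 records, so each of the pair is uncertain on its own. Igll1, the partner of Vpreb1 in the surrogate light chain, had 0, 6, 0 and 0 counts in marrow NDEA and 14, 13, 0 and 0 counts in marrow control. It was not tested, and 3 of 4 NDEA and 2 of 4 control libraries held none.

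Cd79a and Cd79b are the membrane chains that pass the signal of the pre-B and B cell receptors. Cd79a was at 5.79, 30.9, 6.65 and 12.7 CPM in marrow NDEA and at 20.5, 24.5, 8.70 and 14.7 CPM in marrow control. NDEA 2 was the highest of the 8 libraries and NDEA 1 and 3 the lowest, so the NDEA libraries enclosed the control range. For Cd79a the log2 fold change was -0.42 (SE 0.52, interval -1.50 to 0.66, adjusted p = 0.713). Cd79b was at 70.2, 102, 64.4 and 63.9 CPM in marrow NDEA and at 146, 68.6, 64.8 and 86.5 CPM in marrow control. Control 1, the shallowest library, was the highest and NDEA 2 the next. Its log2 fold change was -0.18 (SE 0.28, interval -0.76 to 0.40, adjusted p = 0.782), and its sign turned in 3 of 18 settings.

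Mzb1, a chaperone of the endoplasmic reticulum in marginal zone B and plasma cells, was at 6.49, 9.22, 11.0 and 6.13 CPM in marrow NDEA and at 10.5, 5.82, 2.66 and 7.69 CPM in marrow control. Control 3 was the lowest and NDEA 3 the highest. For Mzb1 the log2 fold change was 0.48 (SE 0.56, interval -0.70 to 1.66, adjusted p = 0.698). Jchain, which links the units of secreted IgM and IgA, had 1 count in NDEA 2 and 0 in the other 7 marrow libraries. It was not tested.

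**Figure D2:**
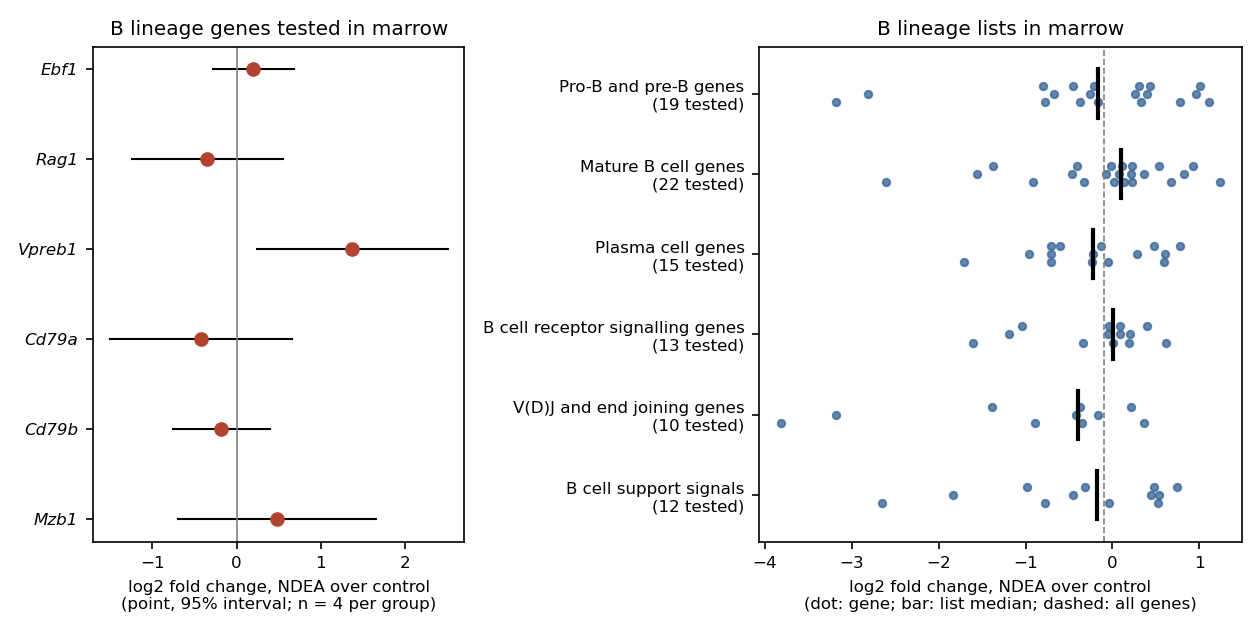
Left, log2 fold change of NDEA over control in marrow for the 6 B lineage genes tested, with the 95% interval; right, the same estimate for each tested gene of 6 B lineage lists, with the list median (bar) and the median of all genes (dashed line, -0.10). The Vpreb1 interval alone of the 6 lies above 0 before adjustment, and the list medians lie between -0.40 and 0.10.

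The wider B lineage lists in marrow also held no call. In the pro-B and pre-B list 19 of 22 matched genes were tested, 0 rose and 0 fell, with 9 higher and 10 lower estimates and a median log2 fold change of -0.17. In the mature B cell list 22 of 28 were tested and 0 passed, with 13 higher and 9 lower estimates and a median of 0.10. In the plasma cell list 15 of 20 were tested and 0 passed, with 5 higher and 10 lower estimates and a median of -0.22. The B cell receptor signalling list (13 of 16 tested, median 0.01), the list of V(D)J recombination and end joining genes (10 of 14, median -0.40) and the list of B cell support signals (12 of 17, median -0.17) likewise had 0 that passed. Among the other cell types, T cell markers had 2 higher and 9 lower estimates (median -0.44, 11 tested) and NK cell markers 1 higher and 5 lower (median -0.99, 6 tested). Plasmacytoid dendritic markers, a list that shares Spib with the mature B cell list, had 4 higher and 3 lower (median 0.02, 7 tested). Monocyte and macrophage markers had 4 higher and 6 lower (median -0.22), neutrophil markers 5 and 7 (median -0.14), megakaryocyte markers 2 and 5 (median -0.80), marrow stroma markers 1 and 10 (median -0.45) and erythroid markers 4 and 8 (median -0.48). None of these passed.

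Of the highest pro-B and pre-B genes, Blnk, the adaptor that links the receptor to its kinases, stood at 333, 346, 647 and 987 CPM in marrow NDEA and at 210, 234, 286 and 361 CPM in marrow control. Only control 4 reached into the NDEA range. The log2 fold change was 0.96 (SE 0.31, adjusted p = 0.247), and without NDEA 3 and 4 it was 0.33 (adjusted p = 0.826). Cd24, a surface protein of B precursors and other young blood cells, averaged 204 ± 85.2 CPM in NDEA and 147 ± 47.9 CPM in control (SD, n = 4 each). The chromatin remodeller gene Smarca4 averaged 123 ± 29.7 CPM in NDEA and 147 ± 26.3 CPM in control, and neither passed (adjusted p = 0.508 and 0.613).

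Of the mature B cell genes, Cd72, an inhibitory co-receptor, stood at 188, 169, 187 and 281 CPM in marrow NDEA, above the 67.9, 112, 157 and 97.2 CPM of marrow control. The groups did not overlap, as in 2.57% of all genes with NDEA higher, and the log2 fold change of 0.93 (SE 0.26) did not pass (adjusted p = 0.247). The transcription factor gene Spib averaged 52.6 ± 27.3 CPM in NDEA and 78.7 ± 46.4 CPM in control. Pou2f2, which encodes the octamer-binding factor Oct-2, averaged 57.4 ± 15.0 CPM in NDEA and 65.6 ± 28.3 CPM in control. Among the mature genes with lower estimates was Fcmr, the Fc receptor for IgM, at 13.7, 19.0, 3.12 and 8.30 CPM in NDEA and 36.5, 38.3, 13.8 and 30.6 CPM in control. Fcmr was chosen after its values were seen, and its log2 fold change of -1.56 did not pass (adjusted p = 0.252).

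**Figure D3:**
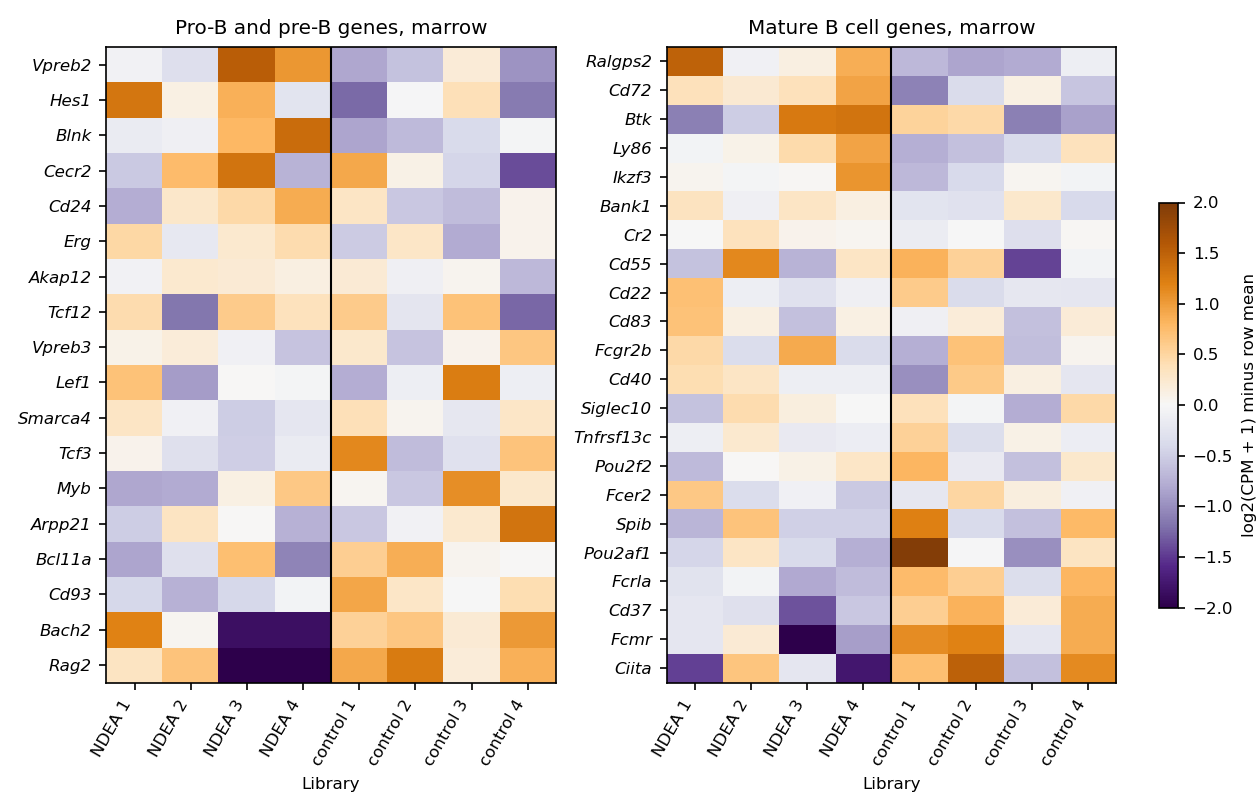
Level of 18 of the 19 tested pro-B and pre-B genes (left) and of each tested mature B cell gene (right) in the 8 marrow libraries, as log2(CPM + 1) minus the gene's mean, ordered by the log2 fold change of NDEA over control. Vpreb2 and Blnk are highest in NDEA 3 and 4, in which Rag2 and Bach2 are at 0, and Fcmr is lowest in NDEA 3.

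Of the plasma cell genes, the endoplasmic reticulum chaperone Hsp90b1 averaged 206 ± 36.9 CPM in marrow NDEA and 228 ± 36.0 CPM in marrow control, the signal peptidase subunit Sec11c 84.9 ± 27.9 and 88.1 ± 18.0 CPM, and the translocon subunit Ssr4 51.3 ± 15.8 and 89.8 ± 36.3 CPM (SD, n = 4 each). Many cell types express these 3. Ighm, the constant region of the IgM heavy chain, averaged 784 ± 117 CPM in marrow NDEA and 710 ± 169 CPM in marrow control, with a log2 fold change of 0.16 (SE 0.22, interval -0.30 to 0.63, adjusted p = 0.745). Iglc1, a lambda light chain constant region, was far lower, at 4.24 ± 2.91 CPM in NDEA and 10.7 ± 5.47 CPM in control (adjusted p = 0.347). Immunoglobulin genes form families of like copies, so these records may share reads with others.

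Of the receptor signalling genes, the inositol phosphatase gene Inpp5d averaged 203 ± 7.75 CPM in marrow NDEA and 156 ± 37.3 CPM in marrow control, the phosphatase gene Ptpn6 198 ± 64.3 and 241 ± 28.0 CPM, and the kinase subunit gene Pik3cd 179 ± 28.0 and 156 ± 41.5 CPM. The adjusted p was 0.412, 0.508 and 0.697 in that order. Of the end joining genes, Xrcc6, which encodes Ku70, averaged 72.5 ± 5.51 CPM in NDEA and 62.8 ± 12.9 CPM in control. Of the support signals, the chemokine receptor gene Cxcr4 averaged 590 ± 170 CPM in NDEA and 401 ± 36.8 CPM in control (log2 fold change 0.52, SE 0.23, adjusted p = 0.305). For Cxcr4 and Inpp5d the groups did not overlap, as in 2.57% of all genes with NDEA higher. The Cxcr4 ligand Cxcl12, made by marrow stroma, averaged 383 ± 45.0 CPM in NDEA and 535 ± 153 CPM in control (log2 fold change -0.45, SE 0.23, adjusted p = 0.370). Tnfsf13, which encodes the plasma cell survival factor APRIL, averaged 38.1 ± 13.7 CPM in NDEA and 67.2 ± 21.7 CPM in control (adjusted p = 0.284).

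The second comparison asked the same in liver. None of the 9 B lineage genes passed the filter there, so 0 were tested, beside 639 of 9668 genes (6.61%) called in liver. The IgM heavy chain record Ighm was the 1 immunoglobulin gene tested of 4 matched, and it was called. Ighm stood at 19.6, 27.3, 41.9 and 23.7 CPM in liver NDEA and at 11.2, 8.93, 7.21 and 8.11 CPM in liver control. Every NDEA library lay above every control library, as in 6.54% of all genes with NDEA higher. Ighm rose 3.05-fold in NDEA liver (log2 fold change 1.61, SE 0.37, interval 0.83 to 2.39, adjusted p = 0.00819), and 2.87% of all genes tested were called higher. It was called in 16 of 17 alternative settings, including all 8 that left out 1 library. With the mitochondrial share in the fit the log2 fold change was 2.21 and the call was lost (adjusted p = 0.0813). That share was 20.1% to 22.4% in liver NDEA and 16.2% to 20.6% in liver control.

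The genes that define B lineage cells were at or near 0 in the same libraries. Cd79b had 41 counts in liver NDEA 3, 1 in liver control 3 and 0 in the other 6. Ebf1 had 16 counts in NDEA 3, 1 in NDEA 2 and 2 in control 4. Thus 1 NDEA library held nearly all the counts of both, and it also had the highest Ighm level and the highest globin share, 0.528% of counts against 0.140% to 0.403% in the other 7 liver libraries. Without that library the log2 fold change of Ighm was 1.37 (adjusted p = 0.0203). Cd79a had 7 counts, all in control 4. Mzb1 had 15 counts in NDEA 1, 5 in control 1 and 3 in control 4. Rag1, Vpreb1, Igll1, Pax5 and Jchain had 0 counts in all 8 liver libraries. For reads assigned to these records, this allows up to 0.0615 CPM over the summed liver totals. Iglc1 had 0 counts in liver NDEA and in liver control. Another heavy chain record, Igh-6, had 5 counts in liver NDEA, all in NDEA 2, and 5 in liver control. These are too few to show or exclude a rise like that of Ighm. The record described as the Ig lambda-2 chain C region had 13 and 7 counts. These 2 records were added after their values were seen. T cell markers summed to 8.41 to 36.1 CPM in liver NDEA and 3.15 to 13.1 CPM in liver control, with higher estimates for both of the 2 tested. Plasmacytoid dendritic markers had 1 of 4 tested that rose, NK cell markers 0 of 5, and monocyte and macrophage markers 1 that rose and 2 that fell of 12. The globin shares of NDEA 1, 2 and 4 were 0.140%, 0.175% and 0.228%, and those of the controls 0.192% to 0.403%. The source of the Ighm counts in liver was not tested.

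**Figure D4:**
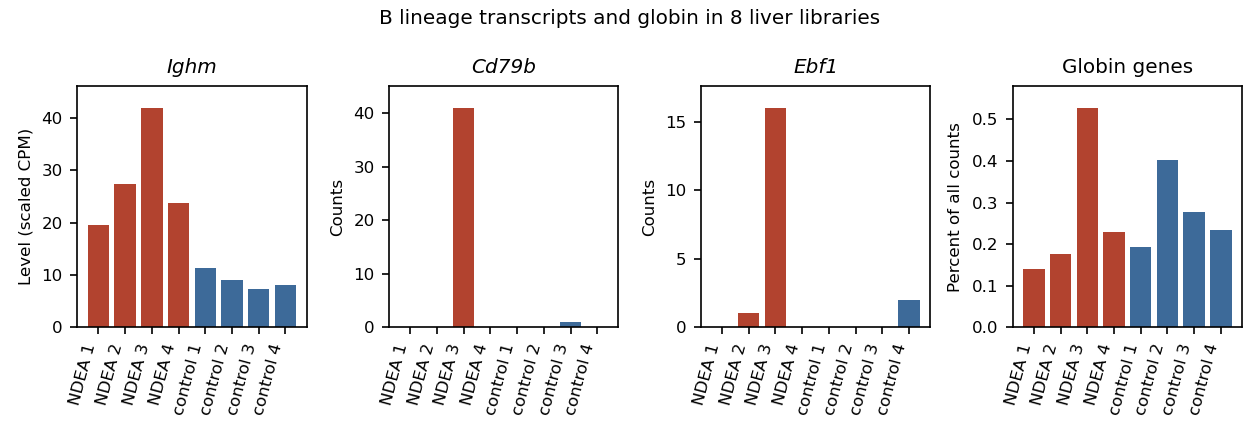
From left, the level of Ighm (scaled CPM), the counts of Cd79b and of Ebf1, and the percent of all counts from globin genes in 4 liver NDEA and 4 liver control libraries, 1 bar each. Ighm is higher in each NDEA library than in each control library, whereas Cd79b and Ebf1 counts sit almost wholly in NDEA 3, which also has the highest globin share.

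The wider B lineage lists in liver held 0 to 2 calls each. Over all genes tested in liver, 6.61% were called, 2.87% higher and 3.74% lower. The pro-B and pre-B list had 0 of 13 tested that passed, with 8 higher and 5 lower estimates (median 0.54, beside 0.01 for all genes), and its highest genes, Smarca4, Hes1 and Cd93, are also expressed outside the B lineage. The mature B cell list had 0 of 11 (median 0.32). In the plasma cell list 1 of 15 fell, where 3.74% of all genes were called lower: Txndc5, a protein disulphide isomerase, averaged 51.0 ± 9.91 CPM in liver NDEA and 80.6 ± 4.21 CPM in liver control (log2 fold change -0.70, adjusted p = 0.0147; 0.0632 without NDEA 4). In the receptor signalling list 1 of 11 rose: Ptprc, the pan-leukocyte phosphatase CD45, averaged 38.0 ± 4.19 CPM in NDEA and 20.2 ± 7.79 CPM in control (log2 fold change 1.04, adjusted p = 0.0326). The call was lost in 7 of 17 settings. Without control 1 the log2 fold change was 0.65 (adjusted p = 0.180). Without control 3, NDEA 2 or NDEA 4 it was 1.13, 0.98 and 1.02 (adjusted p = 0.0549, 0.0774 and 0.0626), and it was 1.03 with no filter and 1.04 with all 16 libraries in 1 fit (adjusted p = 0.0519 and 0.0906). In the V(D)J and end joining list 1 of 9 rose, Nhej1, which encodes the end joining factor XLF, at 12.3 ± 2.86 CPM in NDEA and 0.833 ± 0.766 CPM in control (log2 fold change 4.35, SE 1.31, adjusted p = 0.0474). It was lost in 7 of 17 settings, among them those without any single control library, NDEA 2 or NDEA 4 (adjusted p = 0.0606 to 0.114), while the log2 fold change lay between 3.48 and 4.90 in all 17.

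In the support signal list 2 of 12 fell and 0 rose, where 3.74% of all genes were called lower and 2.87% higher. Cxcl12, the chemokine that retains B precursors in marrow, stood at 115, 112, 76.7 and 85.1 CPM in liver NDEA, below the 278, 207, 261 and 327 CPM of liver control. Its log2 fold change was -1.48 (SE 0.16, adjusted p = 1.11e-06), and it was called in all 17 alternative settings. Igf1, a growth factor made mainly by hepatocytes, averaged 1010 ± 113 CPM in NDEA and 1439 ± 182 CPM in control (log2 fold change -0.51, adjusted p = 0.00253; 0.0572 with all 16 libraries in 1 fit). With the mitochondrial share in the fit, the liver calls of Txndc5, Nhej1, Igf1 and Ptprc were lost (adjusted p = 0.119 to 0.845). The log2 fold change was then -0.69 for Txndc5, 3.64 for Nhej1, -0.50 for Igf1 and 0.37 for Ptprc.

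In control rats the B lineage genes were read almost wholly in marrow. These values are given as a description, since the genes passed the filter through marrow alone. Over the 4 control libraries of each tissue, Ebf1 had 3249 counts in marrow and 2 in liver, Cd79b 1490 and 1, and Cd79a 306 and 7. In CPM, Cd79a was 59.2-fold higher in marrow, with a 95% counting interval of 28.4 to 148. Mzb1 had 112 counts in marrow and 8 in liver, a ratio of 19.0 (9.30 to 45.0). Both intervals cover counting error only and not the spread between rats, and all 7 liver counts of Cd79a were in control 4. Rag1 and Vpreb1 were at 0 in liver and were at least 163-fold and 62.3-fold higher in marrow, taking 3 counts in the summed liver controls as the floor.

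The third comparison asked whether NDEA acted differently in the 2 tissues. It could not be answered for the 9 B lineage genes. Vpreb1 and Rag1 had 0 counts in all 8 liver libraries, so they have no liver effect to set against that in marrow. The other 4 genes tested entered through marrow, with liver counts mostly 0, and the SE of the difference was above 1 on the log2 scale for each. For Ighm, which was read in both tissues, the marrow effect minus the liver effect was -1.47 (SE 0.48, unadjusted p = 0.00540, adjusted p = 0.113), where 2.28% of 11261 genes were called. Over 24 alternative settings the Ighm difference ranged between -1.64 and -1.20 and was called in 1, under limma-trend (adjusted p = 0.0258), so the call in liver and its absence in marrow were not shown to differ by the main test.

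**Figure D5:**
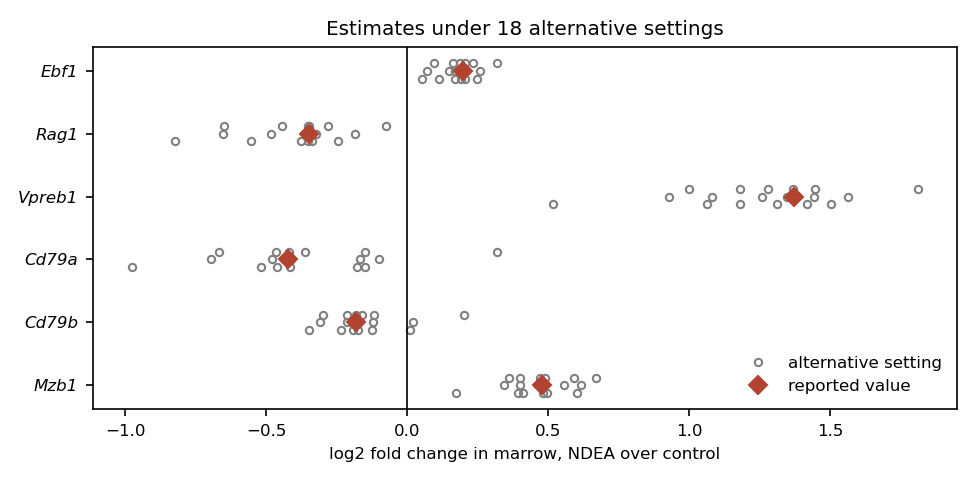
Log2 fold change of NDEA over control in marrow for the 6 B lineage genes tested: the reported value (diamond) and 18 alternative settings (circles). Vpreb1, Ebf1 and Mzb1 stay above 0 and Rag1 below 0 in all 18, whereas Cd79a and Cd79b cross 0 in 1 and 3 of them.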

How the data were processed

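RNA was measured in 16 libraries, 4 per group. Per the labels' protocols, QuantSeq 3' libraries were made. Per the submitters' processing notes the authors used STAR and DESeq2, with no version given; the sources used here give no counter, annotation or genome build. The deposited values are raw counts per gene. The table was damaged: 15579 of 32635 lines were a single quoted cell and 12 records were broken over lines. After rejoining, 32623 records were read, and all 16313 records with group totals matched their sums. Because a plain reading mixes stray pieces into the columns, the deposited columns were recorded with the unit other, and no count model was run. The rejoined values were whole counts, to which a count model could have been fitted.

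A gene was kept if 4 or more libraries reached the CPM that equals 10 counts at median depth and its counts summed to 15 or more. Each tissue was scaled by trimmed means of M values and fitted by limma-voom (limma 3.58.1, R 4.3.3), called at an adjusted p under 0.05; the tissue-by-treatment term used all 16 libraries as independent, although liver and marrow libraries may come from the same rats, which the labels do not say. Fits that leave out a library require as many libraries as the smallest group left. The fit was also run on simulated counts with the same spread for every gene, which does not show how it performs on these libraries. The members, gene lists and tests were chosen with earlier results of these data known. Named genes were the 9 members, the 3 tested genes of highest mean CPM in each B lineage list and any gene of those lists that was called; the text marks those added after their values were seen. Of 247 list entries, 237 matched a record. Alternatives were other scalings and filters, limma-trend, quality weights, the replicate block, all libraries in 1 fit, the mitochondrial share as a covariate, marrow NDEA 3 and 4 left out, and each library left out in turn. No molecular identifiers are named, so floors and counting intervals cover counting error only. RefSeq tables (GRCr8) gave names and promoters. Other dose groups were not analysed here, and 1 gene of the pro-B and pre-B list enters its counts but is not reported here by itself.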

Additional observations from a re-analysis of the deposited data

Results flagged for a closer look

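In 8 of 96 groups of 4 libraries screened, 1 library stood apart from the rest of its group, where chance flags about 1 in 20 groups, or 4.8 of 96. Among the 9 B lineage genes this was Cd79b in marrow NDEA, where NDEA 2 was at 102 CPM and the other 3 lay between 63.9 and 70.2 CPM. NDEA 2 also stood apart in marrow for Spib, at 93.3 CPM against 34.8 to 41.3 CPM, and for Ssr4, at 74.8 CPM against 40.5 to 45.9 CPM. In marrow, NDEA 4 was high for Cd72 (281 CPM against 169 to 188 CPM) and control 1 for Hsp90b1 (281 CPM against 205 to 215 CPM). In liver, NDEA 1 was high for Cd93 (65.4 CPM against 38.8 to 41.5 CPM), control 4 for Smarca4 (67.3 CPM against 51.0 to 52.9 CPM) and control 2 for Xrcc6 (27.0 CPM against 11.7 to 14.2 CPM).

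For 1 named gene the NDEA effect differed between the tissues. Cd93, a surface protein of early B precursors that endothelial and myeloid cells also carry, averaged 31.1 CPM in marrow NDEA and 56.0 CPM in marrow control, and 46.8 CPM in liver NDEA and 30.0 CPM in liver control. The marrow effect minus the liver effect was -1.53 on the log2 scale (adjusted p = 0.0419 by limma-voom). The difference was called in 5 of 24 alternative settings (adjusted p = 0.0270 to 0.140 over all 24; 0.0523 with the replicate block), the libraries of both tissues were taken as independent, and neither tissue's own effect passed.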

How the results depend on the processing

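In marrow, 0 of the B lineage genes were called in any of the 18 alternatives, and of 340 recomputed values of single genes over all comparisons 8 turned their sign. Cd79a turned to 0.32 and Cd79b to 0.20 with the mitochondrial share in the fit, and Cd79b also to 0.0094 without marrow NDEA 3 and 4 and to 0.020 without marrow control 1. In the tissue difference, which rests on few liver counts or none, Cd79a turned to -0.28 without liver control 4, Cd79b to 0.32 and Ebf1 to 0.35 without liver NDEA 3, and Rag1 to 0.046 without marrow NDEA 1. With 1 library left out, Cd79b in marrow ranged between -0.35 and 0.02, and the tissue difference between -0.28 and 1.03 for Cd79a, -1.87 and 0.32 for Cd79b, -1.36 and 0.35 for Ebf1, and -0.51 and 0.05 for Rag1. The number of genes called in marrow, 0 in the reported fit, was 2 with no filter, 69 with all 16 libraries in 1 fit, 1 with the mitochondrial share, and 0 to 318 with 1 library left out; the 318 came without control 3. The same-numbered libraries of NDEA and control did not deviate together (correlations of -0.01 to 0.06). The labels do not say whether the numbers pair samples, and these correlations cannot settle it. With the replicate block 289 genes were called in marrow, among them Vpreb2 (adjusted p = 0.0344), Blnk (0.0145), Cd72 (0.0325) and Fcmr (0.0441). Without marrow control 3, Cd72 (0.0253), Fcmr (0.0337), Fcrla (0.0388) and Igf1 (0.0412) were called, of the B lineage lists. In liver, 148 genes were called with the mitochondrial share in the fit, against 639. In the tissue difference, 88 were called without marrow NDEA 3 and 4 and 102 to 509 with 1 library left out, against 257; the lowest and highest came without liver control 4 and marrow control 3. The causes were not tested. Counts of Igll1 and Jchain in marrow, and of all 9 B lineage genes in liver, were 0 or too few to test.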

Other observations

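Other immunoglobulin records in marrow, chosen after their values were seen, did not pass either. The heavy chain record named Igh-6 stood at 27.1, 49.5, 7.27 and 19.4 CPM in marrow NDEA and at 24.3, 79.1, 25.1 and 57.7 CPM in marrow control (log2 fold change -1.05, SE 0.49, adjusted p = 0.335 by limma-voom). The record described as the Ig lambda-2 chain C region stood at 38.2, 60.2, 7.90 and 11.7 CPM in NDEA and at 85.9, 66.5, 10.9 and 57.0 CPM in control (log2 fold change -0.95, adjusted p = 0.463). Both were lowest in NDEA 3, and control 3 was the lowest or next to the lowest control. Tent5c, a poly(A) polymerase gene of plasma cells and erythroblasts that was likewise chosen after its values were seen, lay at 21.8 to 27.4 CPM in marrow NDEA, below the 39.6 to 63.3 CPM of marrow control. Its groups did not overlap, as in 5.6% of all genes in either direction, and its log2 fold change of -0.96 did not pass (adjusted p = 0.247).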
